A study of Mus musculus with 4 samples.

Results

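The regions described here are 2386 stretches of the mouse genome that carried H3K27ac peaks in both of the study's ChIP libraries, at similar length, and that lay away from the ends of protein-coding genes. The peaks of both deposited lists were merged, and a merged region was kept when it held peaks of both lists, when its covered length in the control-labelled list was more than 0.5 and less than 2 times that in the BN1-labelled list, and when it touched no window of 1000 bp around an end of a RefSeq protein-coding gene. The 2386 regions were 6.83% of the 34938 merged regions. The regions were therefore chosen by presence in both lists and by covered length, and counts that rest on these values are descriptions.

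The series profiled H3K27ac by fanChIP, a native chromatin immunoprecipitation, followed by sequencing, in bone marrow of C57BL/6 mice. The BN1 group had the genotype cKit(+) BRD9-NUTM1, and the control group had the genotype cKit(+); the cell type given for both was CD45.2+ bone marrow cells. Each group had 1 ChIP library, so differences have no replicate check and no p-value was computed; the 2 input libraries were not analysed here. Controls included, all samples carry an extract protocol that speaks of sorted BN1 cells positive for cKit. The promoter that drives the fusion, the number of animals and any pooling are not given in the sources used.

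Peak names and sample titles point in opposite directions: peaks in the control-labelled list carry the prefix BRNU, and peaks in the BN1-labelled list carry the prefix BM. The labels do not explain these prefixes. Groups follow the sample titles throughout, and every direction holds for the labels only. The BN1-labelled list held 19148 peaks over 19.1 Mb and the control-labelled list 28343 peaks over 31.0 Mb, so the control list covered 1.62 times as much sequence. Kit, the receptor named in the sort, had no covered base within 10 kb in either list, and no region of the set lay within 50 kb of it. Within the same 10 kb, Ptprc, which encodes CD45, had 2958 covered bp in the BN1-labelled list and 6634 covered bp in the control-labelled list. Cd34, a progenitor surface protein, had no covered bp within 10 kb in the BN1-labelled list, against 1601 bp in the control-labelled list. Farther out, a region of the set lay 14470 bp from Cd34. It covered 1697 bp in the BN1-labelled list and 3183 bp in the control-labelled list. Brd9 had 1720 covered bp within 10 kb in the BN1-labelled list and 1296 bp in the control-labelled list. Nutm1 had 4705 bp within 10 kb in the BN1-labelled list and 4844 bp in the control-labelled list. Peaks at these genes cannot tell a fusion transcript from the normal gene.

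H3K27ac marks active promoters and active enhancers, the distal elements from which transcription factors raise the output of a promoter. Acetyltransferases such as p300 and CBP place the mark, and bromodomain proteins bind acetylated histones. BRD9 is such a bromodomain protein, in a form of the BAF remodelling complex, and NUTM1, normally made in testis, binds p300. In blood cells, enhancers away from promoters hold much of the information on cell identity, while promoters of general genes are acetylated in most cell types.

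Short RNA genes overlapped some of the strongest regions. The mature sequences below, from the RefSeq GRCm38.p6 tables, belong to miRNA genes inside the let-7i region and the miR-23a cluster region; they are shown because these regions hold the best known miRNA genes of the set. Sequences run 5′ to 3′ and capitals mark the seed, bases 2 to 8, which pairs with target mRNAs.
mmu-let-7i-5p: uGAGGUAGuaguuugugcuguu
mmu-miR-23a-3p: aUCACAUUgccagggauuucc
mmu-miR-27a-3p: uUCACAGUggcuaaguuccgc
mmu-miR-24-3p: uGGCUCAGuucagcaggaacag
The let-7i gene lay on the minus strand of chromosome 10, with its mature 5p arm at chr10:122985698-122985719, inside the region chr10:122984728-122987117. The miR-23a, miR-27a and miR-24-2 genes lay in a row on the plus strand of chromosome 8, inside the region chr8:84207238-84209534. The 4 seeds differ from each other.

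A second set of sequences comes from starts of transcription that lie inside regions of the set, since the rule looked only at the ends of whole gene spans. The 300 bases shown run from 250 before to 50 after an annotated start of Runx1, Zeb2, Ikzf1 or Elf1, transcription factor genes of blood cells, and capitals mark CpG dinucleotides. These genes were picked by name as examples that differ in CpG content. Whether the starts in the set fall into separate kinds was not tested.
Runx1, chr16:92697280-92697579, minus strand: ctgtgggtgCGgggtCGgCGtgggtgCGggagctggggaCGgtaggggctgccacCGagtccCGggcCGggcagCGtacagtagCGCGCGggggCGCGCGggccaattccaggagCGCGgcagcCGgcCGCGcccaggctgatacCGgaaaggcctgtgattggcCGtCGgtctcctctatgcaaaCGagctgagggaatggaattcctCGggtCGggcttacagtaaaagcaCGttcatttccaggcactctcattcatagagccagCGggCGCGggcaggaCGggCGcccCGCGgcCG
Zeb2, chr2:45110228-45110527, minus strand: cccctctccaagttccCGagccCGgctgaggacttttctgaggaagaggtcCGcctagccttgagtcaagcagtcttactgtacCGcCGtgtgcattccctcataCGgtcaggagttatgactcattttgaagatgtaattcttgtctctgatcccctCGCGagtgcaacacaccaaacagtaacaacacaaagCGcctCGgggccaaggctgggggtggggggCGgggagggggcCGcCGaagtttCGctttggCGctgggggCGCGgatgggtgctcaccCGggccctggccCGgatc
Ikzf1, chr11:11689927-11690226, plus strand: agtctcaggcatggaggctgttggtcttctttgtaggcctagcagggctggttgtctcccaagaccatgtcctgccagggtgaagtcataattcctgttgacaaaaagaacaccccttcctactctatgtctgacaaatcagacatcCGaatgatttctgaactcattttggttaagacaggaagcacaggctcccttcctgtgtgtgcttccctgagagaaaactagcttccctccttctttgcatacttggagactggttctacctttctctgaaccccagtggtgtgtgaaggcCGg
Elf1, chr14:79515424-79515723, plus strand: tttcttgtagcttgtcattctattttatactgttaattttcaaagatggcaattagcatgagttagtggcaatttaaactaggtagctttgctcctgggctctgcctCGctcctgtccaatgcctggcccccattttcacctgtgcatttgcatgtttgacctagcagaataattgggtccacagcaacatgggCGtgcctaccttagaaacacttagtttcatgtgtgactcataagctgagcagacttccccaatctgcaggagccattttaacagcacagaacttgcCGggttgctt
The Runx1 window held 35 CpG and the Zeb2 window 19, against 2 in the Ikzf1 window and 3 in the Elf1 window. The ratio of observed to expected CpG was 1.01 for Runx1, 0.690 for Zeb2, 0.111 for Ikzf1 and 0.202 for Elf1.

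Of the 11112 merged regions that held peaks of both lists, 8539 lay within the 2-fold bounds, which is 76.8%. Away from gene ends the share was 64.8%, or 2386 of 3682 regions; both percentages follow from the rule and nothing is read from them. The regions held 2647 peaks (3.06 Mb) of the BN1-labelled list and 2575 peaks (3.37 Mb) of the control-labelled list. That was 16.0% of all sequence covered in the BN1-labelled list and 10.9% of that in the control-labelled list. A single peak of each list made up 2018 regions, or 84.6% (95% exact binomial interval 83.1 to 86.0). The covered length was greater in the BN1-labelled list in 901 regions and greater in the control-labelled list in 1483, and it was equal in 2. Regions were spread over all chromosomes, with 188 on chromosome 2 as the highest count and 4 on the Y chromosome, and 3 lay on unplaced scaffolds.

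The regions were mostly short. The median width was 1279.5 bp (95% order-statistic interval 1227 to 1340), the middle 50% of regions spanned 734.5 to 2083 bp, and the range was 241 to 10637 bp. The median covered length was 1012 bp in the BN1-labelled list and 1115.5 bp in the control-labelled list. Regions at gene ends that met the same sharing and length criteria were wider, with a median of 1528 bp.

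The bounds of the rule separated regions with nearly the same values. Just inside the upper bound, the region at Chst11 covered 994 bp in the BN1-labelled list and 1986 bp in the control-labelled list, a ratio of control to BN1 of 1.998. Just outside it, the region at Capn11 covered 810 bp in the BN1-labelled list and 1620 bp in the control-labelled list. At the lower bound, the region at Slc39a11 lay inside with 1972 bp in the BN1-labelled list and 987 bp in the control-labelled list, a ratio of 0.501. The region at Ctc1 lay outside with 905 bp in the BN1-labelled list and 452 bp in the control-labelled list, a ratio of 0.499. Fold enrichment was not part of the rule and is read only within a list. At Slc39a11 it was 43.7 in the BN1-labelled list, the 97.3rd percentile of that list's peaks. In the control-labelled list it was 10.1, the 70.1st percentile of that list's peaks.

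Within the regions, the peaks of the lists mostly lay on the same bases. Both lists covered a median of 69.5% of the bp covered by either (95% order-statistic interval 68.5 to 70.7), and at least 50% in 2102 regions, or 88.1% (95% interval 86.7 to 89.4). This overlap follows in part from the length bounds of the rule, with medians of 77.5% under bounds of 1.5-fold and 62.8% under bounds of 3-fold. The summits, the highest point of each peak as the authors' caller placed it, were a median of 90.5 bp apart, and 1614 regions (67.6%, 95% interval 65.7 to 69.5) had summits within 200 bp. They were over 1000 bp apart in 93 regions (3.90%), such as the region at Xylt1, where the gap was 4583 bp. Regions at gene ends had a median summit gap of 67 bp and a median of 76.3% of bp covered by both. Shared regions away from ends with a 2-fold or greater difference in length had a median gap of 127.5 bp, and their lower overlap of 29.8% follows from their unequal lengths.

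**Figure D1:**
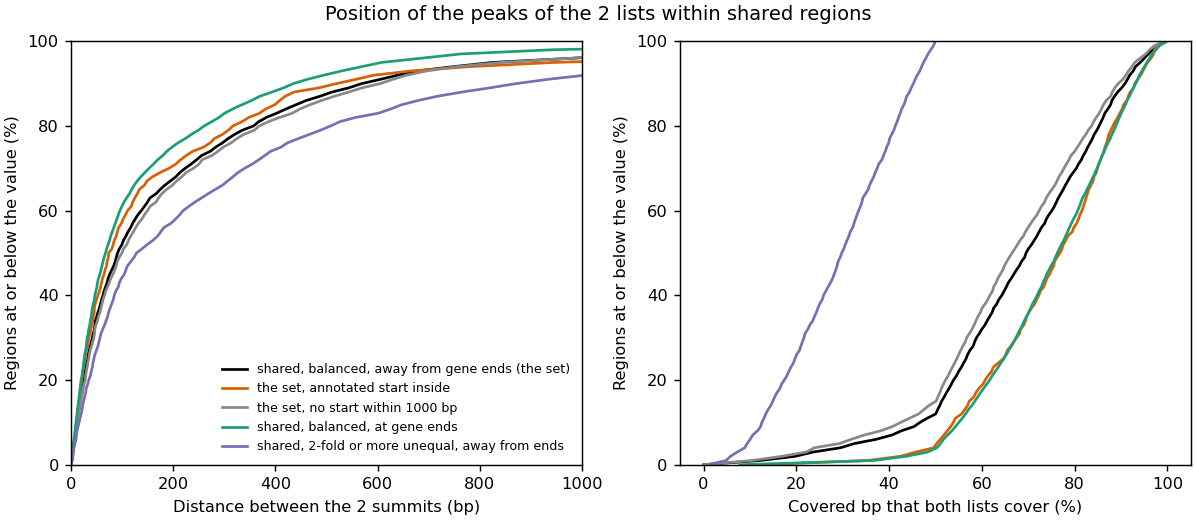
Cumulative percentage of regions (y axis) against the distance between the summits of both lists in bp, drawn up to 1000 bp (left), and against the percentage of covered bp that both lists cover (right), for 5 region sets. In the left panel the black line of the 2386 regions, with a median of 90.5 bp, lies between the shared, balanced regions at gene ends, at 67 bp, and the shared, unequal regions away from ends, at 127.5 bp.

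The height of the peaks varied widely among the regions. Fold enrichment, the authors' own ratio at a peak's summit, is compared only within its list, where each highest peak of a region was also given a percentile among all peaks of that list. The median highest fold enrichment was 8.08 in the BN1-labelled list (middle 50% of regions 5.35 to 13.6, range 1.15 to 131.9) and 8.84 in the control-labelled list (middle 50% 5.66 to 14.2, range 1.41 to 72.9). The median percentile was 58.9 in the BN1-labelled list and 64.5 in the control-labelled list. The lists differ in length, and with lists of equal length the order turned round, with 63.5 in the BN1-labelled list and 56.8 in the control-labelled list. The full lists had median fold enrichments of 6.65 for BN1 and 6.57 for control. In 474 regions (19.9%) the highest peak was above the 75th percentile of both lists, and in 542 regions (22.7%) it was below the 50th percentile of both.

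Regions at gene ends were higher in both lists, with medians at the 78.6th percentile of the BN1-labelled list and the 79.7th of the control-labelled list. Shared regions away from ends with a 2-fold or greater difference in length had a median fold enrichment of 5.38 in the BN1-labelled list, at the 37.3rd percentile, and 8.96 in the control-labelled list, at the 65.5th percentile. Most of these unequal regions were longer in the control-labelled list, with a median ratio of control to BN1 covered length of 2.69. Their percentiles are therefore not independent of the length rule. Regions away from ends found in a single list were lower in their own list than the 2386. Their median fold enrichment was 4.80 for those in the BN1-labelled list only and 5.06 for those in the control-labelled list only. The 2386 were kept because both lists held a called peak, so this difference is not independent of the rule either. Over the 2386 regions, Spearman's rho between the fold enrichments of both lists was 0.646. It was 0.670 over the 6153 shared, balanced regions at gene ends. These correlations describe sites within a pair of libraries, and sites share the mappability and base composition of their sequence in both.

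**Figure D2:**
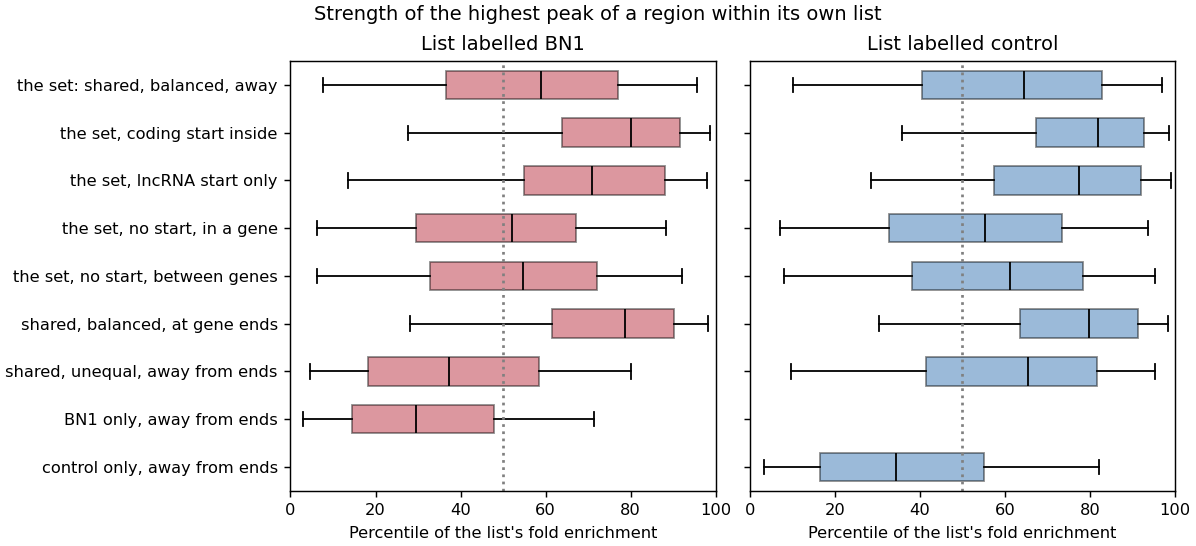
Boxes show the median and the middle 50%, and whiskers the 5th and 95th percentiles, of the highest fold enrichment of a region as a percentile of its own list (x axis), for BN1 on the left and control on the right. Regions of the set with a protein-coding start inside sit near those at gene ends, with medians at 80.1 for BN1 and 81.8 for control, and regions with no start lie closer to the middle of each list.

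The label of regions away from gene ends holds for the ends of whole gene spans and not for every start of transcription. Starts could be looked up for 2307 regions; the table used for starts holds none for chromosome 18 or for the unplaced scaffolds, which leaves 79 regions without an entry. It also holds only 17492 of the 21887 protein-coding genes, so a region counted as without a start may hold one: of 875 such regions inside genes, 182 lay in genes without an entry. A protein-coding start lay inside 455 regions, or 19.7% (95% interval 18.1 to 21.4), and a start of a long non-coding RNA (lncRNA) alone lay inside 129 more, or 5.59%. In all, 584 regions (25.3%, 95% interval 23.6 to 27.1) held an annotated start, and 1631 (70.7%, 95% interval 68.8 to 72.5) had none within 1000 bp. Among shared regions away from ends with a 2-fold or greater difference in length, a start lay inside 14.5%. Among shared, balanced regions at gene ends it was 77.3%.

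Regions with a start inside were higher and longer than those with none within 1000 bp. With a protein-coding start inside, the median fold enrichment was 15.3 in the BN1-labelled list and 13.8 in the control-labelled list, and the median width was 1684 bp. With an lncRNA start only, the medians were 11.1 in the BN1-labelled list and 12.1 in the control-labelled list. With no start within 1000 bp, they were 7.06 in the BN1-labelled list and 7.73 in the control-labelled list, and the median width was 1138 bp. The overlap in bp was also greater with a start inside, at a median of 76.9% against 66.5% with none within 1000 bp. The 92 regions with a start within 1000 bp but none inside were the narrowest, with a median width of 897.5 bp. Their median fold enrichment was 6.54 in the BN1-labelled list and 6.76 in the control-labelled list. A longer region has more room to hold a start, so these contrasts are not independent of length.

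**Figure D3:**
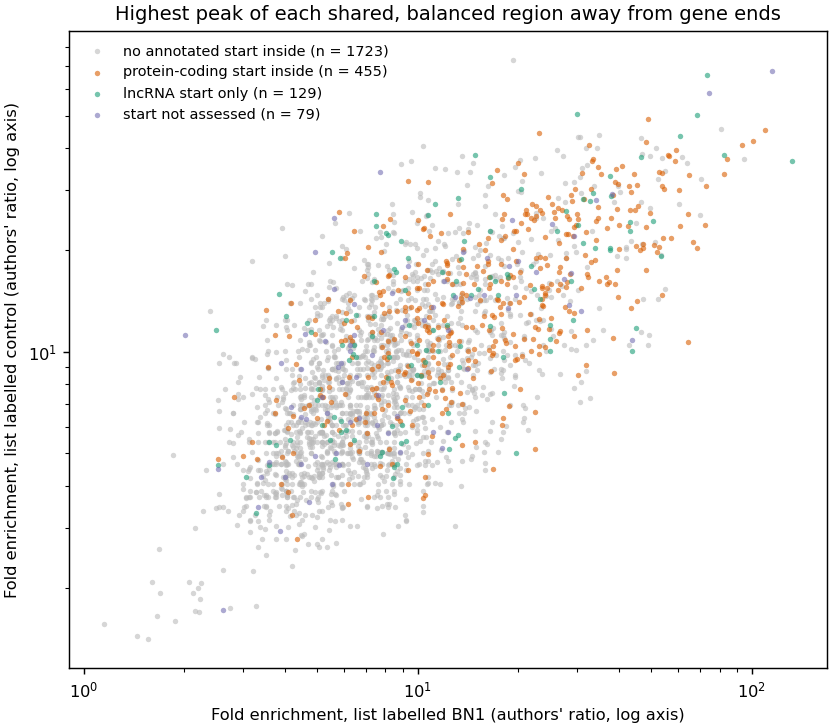
Each point is a region, placed by the fold enrichment of its highest peak in the BN1-labelled list (x axis) and the control-labelled list (y axis), both on log axes, and coloured by the annotated starts inside it. The 455 regions with a protein-coding start reach farther to the upper right than most of the 1723 regions without a start inside, and the highest value in the BN1-labelled list is the Malat1 region at 131.9.

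The protein-coding starts inside regions belonged to 447 genes, and they lay a median of 6.69 kb from the outer 5′ end of the gene span (middle 50% 3.10 to 18.3 kb). For 208 of these genes the start table gives a single start, and for 254 every start in the table lay in a region of the set. The outer end carried a peak within 1000 bp in neither list for 277 genes (62.0%, 95% interval 57.3 to 66.5) and in both lists for 106 (23.7%). It carried one in the BN1-labelled list only for 20 genes and in the control-labelled list only for 44. Gene spans in the table include predicted transcript models, so an outer end need not be a start that these cells use.

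Genes with such a start included general regulators at the top of both lists. Lrif1, which encodes a nuclear receptor-interacting protein, had a start 36.74 kb inside its span with a fold enrichment of 100.5 in the BN1-labelled list and 42.1 in the control-labelled list; its outer end had a peak in the control-labelled list only. Nfyc, a subunit of the CCAAT-binding factor NF-Y, had 93.4 in the BN1-labelled list and 41.0 in the control-labelled list at a start 6.37 kb inside. Baz2b, a bromodomain protein gene, had 84.1 in the BN1-labelled list and 37.2 in the control-labelled list. Chromatin genes among the 447 included Hdac4, a histone deacetylase, with 52.8 in the BN1-labelled list and 34.1 in the control-labelled list, and Kmt2d, a histone methyltransferase of enhancers, with 43.0 in the BN1-labelled list and 30.8 in the control-labelled list. Hdac4 and Kmt2d were chosen after their values were seen.

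The blood transcription factor genes whose start sequences are printed above had lower fold enrichment in the BN1-labelled list than these. The inner Runx1 start, 128.7 kb inside the span of this core regulator of blood stem cells, lay in chr16:92696570-92699023, which covered 1943 bp in the BN1-labelled list and 2454 bp in the control-labelled list. Its fold enrichment was 10.7 in the BN1-labelled list, at the 69.8th percentile, and 31.8 in the control-labelled list, at the 98.2nd percentile. The Zeb2 start region covered 3941 bp in the BN1-labelled list and 6482 bp in the control-labelled list, with a fold enrichment of 20.7 in the BN1-labelled list and 33.6 in the control-labelled list. The CpG-poor starts were lower: Ikzf1, which encodes the lymphoid factor Ikaros, had 9.96 in the BN1-labelled list and 13.3 in the control-labelled list. Elf1, an ETS factor gene, had 8.13 in the BN1-labelled list and 6.96 in the control-labelled list. All 4 genes also had a peak of both lists at their outer end.

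The start windows resembled those of shared regions at gene ends in base composition. Over the 569 protein-coding start windows inside regions, the median ratio of observed to expected CpG was 0.811, against 0.846 in the 5992 start windows inside shared, balanced regions at gene ends and 0.567 in all 21263 protein-coding start windows. For the 214 lncRNA start windows inside regions the ratio was 0.573, against 0.245 for all 11588. Short motifs were searched on both strands by their letters. The ETS motif GGAAGT was present in 27.1% of the 569 windows (154), in 33.7% of windows in regions at gene ends and in 24.8% of all windows. The RUNX motif TGTGGT was present in 13.5% of the 569, 10.8% of those at gene ends and 15.0% of all. The GATA motif AGATAA was present in 5.27% of the 569, 4.94% of those at gene ends and 9.65% of all, the AP-1 motif TGANTCA in 5.45%, 3.67% and 6.99% in the same order, and the C/EBP motif TTGCNNAA in 8.79%, 7.04% and 10.2%. Among the printed windows, Elf1 held 1 ETS and 1 AP-1 match and Zeb2 held 2 AP-1 matches, while Runx1 and Ikzf1 held none of these 5 motifs. A match is a run of letters and not a bound site. Sequence of regions without a start was not analysed here.

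Starts of 180 lncRNAs lay inside regions, and 166 of them have only predicted or clone-based names. Chaserr, an lncRNA that restrains its neighbour Chd2 in mice, lay in a region of 2803 bp in the BN1-labelled list and 3238 bp in the control-labelled list, with a fold enrichment of 68.3 in the BN1-labelled list and 50.3 in the control-labelled list. Malat1, an abundant nuclear lncRNA, had 131.9 in the BN1-labelled list and 36.7 in the control-labelled list. Both stood in the top 2% of each list. Host transcripts of miRNAs were also present: Mir22hg, which carries miR-22, had 29.9 in the BN1-labelled list and 50.6 in the control-labelled list, and Dleu2, which carries the miR-15a and miR-16-1 pair, had 43.2 in the BN1-labelled list and 24.3 in the control-labelled list. Morrbid, an lncRNA of myeloid cell lifespan, had 8.91 in the BN1-labelled list, at the 63.0th percentile, and 21.3 in the control-labelled list, at the 93.0th percentile.

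Small RNA genes overlapped 57 regions, inside them or at an edge, 71 genes in all. The median fold enrichment of the 57 regions was 13.3 in the BN1-labelled list, against 8.08 over all 2386 regions. In the control-labelled list it was 13.6, against 8.84. The median percentiles were 76.5 in the BN1-labelled list, against 58.9 over all regions, and 81.5 in the control-labelled list, against 64.5. Genes for tRNAs made up 31 of the 71, in 22 regions, and genes annotated as small nuclear RNAs made up 21, in 19 regions. The class is that of the annotation, which also places the Rnu3b genes in it. The small nuclear RNA regions had a median fold enrichment of 22.6 in the BN1-labelled list and 17.2 in the control-labelled list. The span of Tex14, a gene of germ cell bridges, held 5 of them in a row, at Rnu1a1 and Rnu3b1 to Rnu3b4. Fold enrichment there ran over 13.7 to 60.6 in the BN1-labelled list and 6.18 to 42.9 in the control-labelled list. The Rnu3b genes are near-identical copies, so how reads were shared among them is uncertain. Rn7sk, whose RNA holds back the elongation kinase P-TEFb, overlapped a region with 28.7 in the BN1-labelled list and 16.2 in the control-labelled list.

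Genes for miRNAs overlapped 11 regions, 14 genes in all. The region of the let-7i gene, a member of a family that restrains growth programmes, lay 4943 bp from the nearest gene end, that of Mon2. It covered 2152 bp in the BN1-labelled list and 2049 bp in the control-labelled list. The fold enrichment was 80.9 in the BN1-labelled list and 45.6 in the control-labelled list, in the top 1% of each. The summits lay 25 bp apart. The region of the miR-23a cluster, which is known in mice for favouring myeloid over B cell development, covered 2297 bp in the BN1-labelled list and 1516 bp in the control-labelled list. Its fold enrichment was 14.1 in the BN1-labelled list and 10.2 in the control-labelled list. A far longer region lay 1367 bp from it, nearest to Zswim4, and covered 7762 bp in the BN1-labelled list and 9036 bp in the control-labelled list with 31.1 in the BN1-labelled list and 35.0 in the control-labelled list. Mir1893 lay inside the Epc1 region on chromosome 18, which had 114.8 in the BN1-labelled list and 67.6 in the control-labelled list. Epc1 encodes a subunit of the TIP60 acetyltransferase complex. The other miRNA genes in regions were Mir7681, Mir8096, Mir6904, Mir7671, Mir6367, Mir5123, Mir7062, Mir7687 and, in the cluster, Mir3074-2, and over all 11 regions the fold enrichment ran from 4.60 to 114.8 in the BN1-labelled list and from 4.46 to 67.6 in the control-labelled list.

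**Figure D4:**
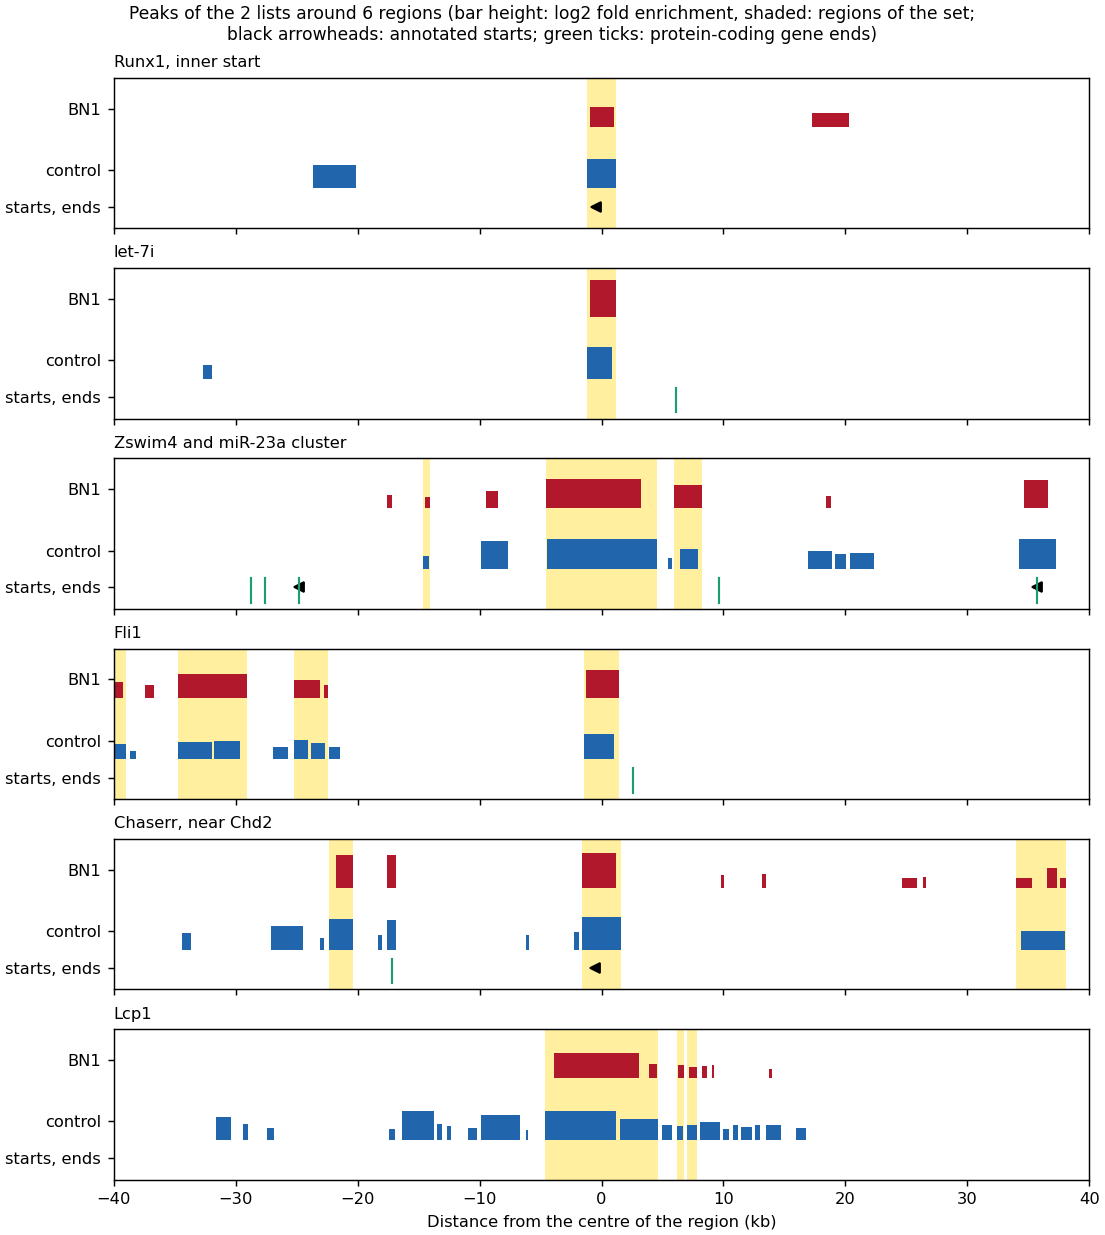
Peaks of the BN1-labelled list (upper row of each panel) and the control-labelled list (lower row) within 40 kb of the centre of 6 regions, with bar height as log2 fold enrichment, regions of the set shaded, annotated starts as arrowheads and protein-coding gene ends as ticks. The shaded regions carry peaks of both lists at nearly the same places, which follows in part from the rule. Around Lcp1 the unshaded peaks beside them are more frequent in the control row.

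The 10 regions with the highest mean percentile mostly held an annotated start or a small RNA gene. They were the regions at Epc1, Sp2, let-7i near Mon2, Lrif1, Nfyc, Chaserr and Malat1, a region near Mef2d with a start of 1700113A16Rik, a region near Syk with a start of Gm2848, and 1 region on an unplaced scaffold. The region in Sp2, which encodes a transcription factor of the Sp family, covered 4521 bp in the BN1-labelled list and 5441 bp in the control-labelled list, with a fold enrichment of 109.2 in the BN1-labelled list and 45.2 in the control-labelled list. The region near Syk, a kinase of immune receptors, had 82.2 in the BN1-labelled list and 38.3 in the control-labelled list. Of the 116 regions with a mean percentile above 95, starts could be looked up for 112 and lay inside 75, and 32 had neither a start within 1000 bp nor a small RNA gene.

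None of the 10 longest regions was among the 10 with the highest mean percentile. The longest, 28379 bp from the chemokine receptor gene Ccr1, covered 10637 bp in the BN1-labelled list and 9890 bp in the control-labelled list. It was 1 peak in the BN1-labelled list, with a fold enrichment of 3.85 at the 14.2nd percentile, and 3 peaks in the control-labelled list, with 14.8 at the 84.0th percentile. The region near Cd69, an early activation receptor of lymphocytes, covered 8841 bp in the BN1-labelled list and 8210 bp in the control-labelled list. Lcp1, which encodes the leukocyte actin-bundling protein L-plastin, held a region of 7650 covered bp in the BN1-labelled list and 9076 bp in the control-labelled list. Srgn, which encodes the granule proteoglycan serglycin, held a region of 7242 covered bp in the BN1-labelled list and 7065 bp in the control-labelled list, and 97.6% of it was covered by both. A region 81979 bp from the end of Cebpb, a myeloid transcription factor gene, covered 6828 bp in the BN1-labelled list and 6364 bp in the control-labelled list, with a fold enrichment of 33.4 in the BN1-labelled list and 29.5 in the control-labelled list. The others of the 10 longest lay near Zswim4 and Tomm20 and inside Xylt1, Lrrfip1 and Iqgap1.

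Most regions lay inside genes. A protein-coding gene span held 1453 of them, or 60.9% (95% interval 58.9 to 62.9), against 57.5% of shared, unequal regions away from ends, 53.7% of those in the BN1-labelled list only and 62.7% of those in the control-labelled list only. The median distance to the nearest gene end was 12354 bp, and 127 regions (5.32%) lay over 100 kb away. Inside genes, 1106 genes held regions, 868 of them 1 region each. Rreb1, a zinc finger factor gene of Ras signalling, held 6. Foxp1, a forkhead factor gene, Inpp5d, which encodes the phosphatase SHIP1 of blood cells, and Tec, a kinase gene of lymphocyte receptors, held 5 each, as did Tex14, Sgms1, Entpd1, Slc7a11 and Agpat4. The regions of Inpp5d summed to 12560 covered bp in the BN1-labelled list and 12385 bp in the control-labelled list. Those of Tec were small, with 1948 bp in the BN1-labelled list and 2315 bp in the control-labelled list, and with fold enrichments no higher than 8.75 in the BN1-labelled list and 5.41 in the control-labelled list.

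Some regions had another close by. The next region lay a median of 61.5 kb away, and 627 regions (26.3%) had one within 10 kb. Peaks separated by a short gap count as separate regions here, and merging within 500 bp gave 2010 regions. The spacing of other region classes was not measured. The densest stretch within 100 kb, chr6:47685166-47773222 near Ezh2 and Pdia4, held 9 regions, with 13262 covered bp in the BN1-labelled list and 13888 bp in the control-labelled list; its highest fold enrichment was only 10.6 in the BN1-labelled list and 9.40 in the control-labelled list. A stretch of 8 regions at chr8:126754921-126853512, near Irf2bp2 and Tomm20, covered 23954 bp in the BN1-labelled list and 26170 bp in the control-labelled list. Further stretches held 6 regions each near Sec22b and Notch2, at Mbnl1, near Myo10 and Retreg1, in Rreb1 and near Cfap54 and Cdk17, and 5 regions each near Chd2, near Syk and in Tex14.

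A region of the set lay within 50 kb of 3973 of 21887 protein-coding genes, which is 18.2%. Among the 8395 genes with a peak of both lists at an end, the share was 26.1% (2195 genes). With only regions that have no start within 1000 bp, it was 12.0% of all genes (2629). The start table lacks some genes, so a region counted as lacking a start here and below may hold one. These percentages are the background for 17 gene lists with 398 genes, of which 150 had a region within 50 kb. Neighbouring genes can share a region and longer genes have more room for one. The median gene length was 17.2 kb over all genes. It was 71.7 kb in the fusion partner and chromatin list and 57.6 kb in the stem and multipotent progenitor list. It was 33.4 kb in the leukaemia self-renewal list, 5.44 kb in the housekeeping list and 4.9985 kb in the neutrophil and granule list. Lists with no length given here or below had medians from 9.865 to 24.2 kb.

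Adhesion and migration genes had a region in 14 of 20 cases (70%, 95% interval 45.7 to 88.1, median gene length 36.0 kb), and 13 of 20 (65%) with regions lacking a start, against the 12.0% of all genes. Immediate early and inflammatory genes had one in 19 of 28 (67.9%, 95% interval 47.6 to 84.1), although their median length was 5.95 kb, and cytokine receptor and JAK-STAT genes in 17 of 28 (60.7%, 95% interval 40.6 to 78.5). With regions lacking a start, each of these lists had 13 of 28 (46.4%). Haematopoietic transcription factors had one in 26 of 50 (52%, 95% interval 37.4 to 66.3, median gene length 31.8 kb), and in 16 of 50 (32%) with regions lacking a start. Among genes with a peak of both lists at an end, transcription factors had a region in 19 of 27 cases (70.4%), against 26.1% of all such genes. Counted so, the adhesion list had 10 of 15, the early response list 16 of 24 and the cytokine receptor list 15 of 25. Housekeeping genes had 5 of 15 (33.3%) and B lymphoid genes 3 of 7 (42.9%). Erythroid genes had 1 of 5 (20%) and interferon genes 2 of 14 (14.3%). The intervals cover counting error only, and the lists were not tested. Because the lists were chosen with earlier results of these data known, their shares are descriptions.

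Among cell type lists, monocyte and macrophage genes had a region in 9 of 25 cases (36%), all 9 with regions lacking a start. Stem and multipotent progenitor genes had one in 7 of 22 (31.8%), and in 6 with regions lacking a start, and T and NK lymphoid genes in 6 of 20 (30%), and in 4. Erythroid genes had one in 4 of 22 (18.2%), and in 3 with regions lacking a start. Neutrophil and granule genes had one in 3 of 20 (15%) and B lymphoid genes in 3 of 21 (14.3%), with the same counts for regions lacking a start. Genes of the interferon response had one in 2 of 22 (9.09%), both with regions lacking a start, although 14 of the 22 had a peak of both lists at an end. Among genes of other tissues, 2 of 19 had a region, at Apoa1 and Syn1, and 1 with regions lacking a start. Housekeeping genes had one in 6 of 16 (37.5%), and likewise in 6 with regions lacking a start. Lysosome and phagocyte genes had one in 9 of 20 and in 7 with regions lacking a start (35%), cell cycle genes in 10 of 24 and in 7, fusion partner and chromatin genes in 11 of 28 and in 8, and leukaemia self-renewal genes in 7 of 24 and in 4. Counted this way, the transcription factor list at 32% lay below the housekeeping, monocyte and lysosome lists, and the intervals of lists this short are wide. This order also depends on which genes the start table holds, and it holds no start of the housekeeping gene Ywhaz.

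**Figure D5:**
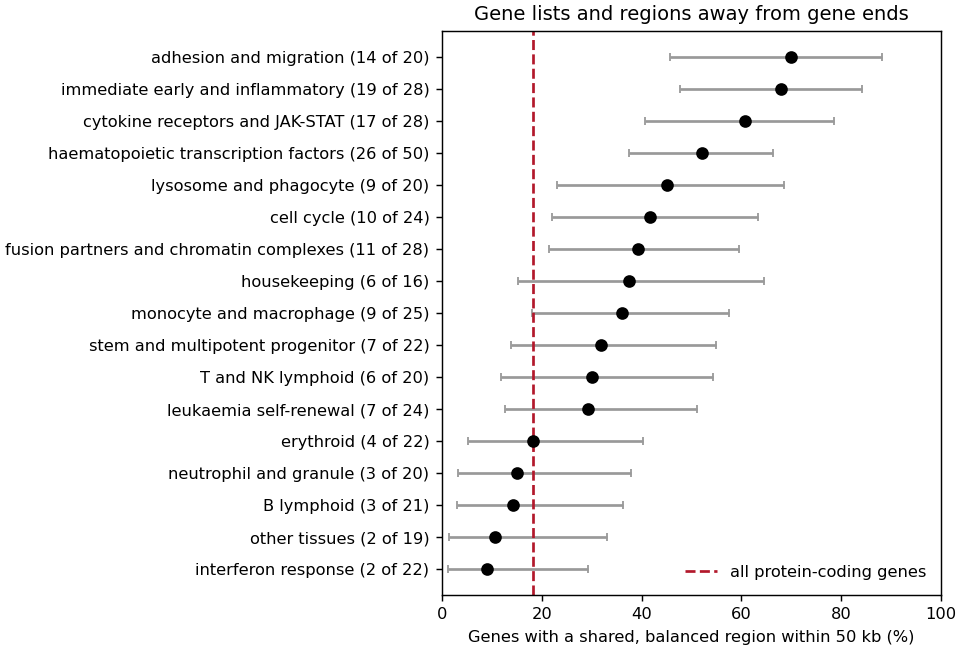
Percentage of the genes of each list with a region of the set within 50 kb (points; lines are exact 95% binomial intervals, counting error only), with the count beside the name and the share of all protein-coding genes, 18.2%, as a dashed line. The adhesion, early response, cytokine receptor and transcription factor lists lie at 52% or higher, and the erythroid, neutrophil, B lymphoid, other tissue and interferon lists lie at 18.2% or lower. The lists also differ in how many of their genes carry a peak at an end. They were chosen with earlier results of these data known.

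Among transcription factor genes, Fli1, an ETS factor of blood and vessel cells, held 4 regions. Going along the gene, they covered 2387, 5665, 2428 and 2722 bp in the BN1-labelled list, against 1408, 4846, 2234 and 2423 bp in the control-labelled list. The last of them had a fold enrichment of 29.4 in the BN1-labelled list and 20.5 in the control-labelled list. Its centre lay 2.60 kb from a protein-coding gene end, and whether it is a promoter was not tested. The lengths were greater in the BN1-labelled list at every one of the 4. Runx2, a relative of Runx1, held 3 regions, of which 2 had the greater length in the control-labelled list, and the longest had 3.99 in the BN1-labelled list and 19.2 in the control-labelled list. Lmo2, a bridging protein of blood stem cell factors, had 2 regions, and the one inside the gene had 24.8 in the BN1-labelled list and 19.3 in the control-labelled list. Elf1 held 3 regions, whose highest values, in different regions, were 20.7 in the BN1-labelled list and 6.96 in the control-labelled list. Spi1, which encodes the myeloid and B cell factor PU.1, held 1 region of 2743 bp in the BN1-labelled list and 3693 bp in the control-labelled list, with a fold enrichment of 42.0 in the BN1-labelled list and 20.4 in the control-labelled list. Spi1 was named after its values were seen.

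Among cytokine genes, the neighbouring receptor genes Ifnar2, Il10rb and Ifnar1 each had 5 regions within 50 kb and shared several of them. The highest fold enrichments near them were 16.4 in the BN1-labelled list and 18.6 in the control-labelled list. Lyn, a Src family kinase of myeloid and B cells, had 4, of which the longest covered 4544 bp in the BN1-labelled list and 3807 bp in the control-labelled list. The chemokine genes Ccl3 and Ccl4 shared 3 regions. The nearest of these to the Ccl3 start covered 2019 bp in the BN1-labelled list and 2102 bp in the control-labelled list, 96.0% of it in both, with a fold enrichment of 21.8 in the BN1-labelled list and 15.1 in the control-labelled list. Near Dusp1, a phosphatase gene of the early response, 3 regions lay upstream of the gene with fold enrichments of 4.70, 9.79 and 8.49 in the BN1-labelled list and 15.8, 20.9 and 17.5 in the control-labelled list. At Fos, a subunit gene of AP-1, 3 regions lay on both sides of the gene, and the strongest had 8.40 in the BN1-labelled list and 15.8 in the control-labelled list.

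Among adhesion genes, Itgb2, the beta chain of the leukocyte integrins, had 5 regions, 3 of them inside the gene, with 7488 covered bp in the BN1-labelled list and 9004 bp in the control-labelled list. Their fold enrichments ran from 3.15 to 13.5 in the BN1-labelled list and from 4.55 to 13.9 in the control-labelled list. Lcp1 held 3 regions and Vav1, an exchange factor gene of immune receptors, had 2 nearby. Ptprc held 2 regions inside the gene, of 813 and 407 covered bp in the BN1-labelled list and 1178 and 680 bp in the control-labelled list. Itgam, which encodes the myeloid integrin chain CD11b, had 3 small regions, none with a fold enrichment above 7.59 in the BN1-labelled list or 9.28 in the control-labelled list.

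Genes of survival and leukaemia were present with few regions each. Mcl1, an anti-apoptotic gene, had 3, and the longest, whose centre lay 6.25 kb upstream of the gene's start, covered 4402 bp in the BN1-labelled list and 6506 bp in the control-labelled list. Its fold enrichment was 27.1 in the BN1-labelled list and 37.9 in the control-labelled list, and the summits lay 1 bp apart. Flt3, a progenitor receptor gene, had 2 regions upstream, but the stronger one held the start of its neighbour Pan3, with 48.3 in the BN1-labelled list and 41.7 in the control-labelled list. In the same way the single region linked to Slc4a1, the anion exchanger gene of red cells, held starts of Ubtf, with 39.3 in the BN1-labelled list and 26.5 in the control-labelled list. Cdk6, a cell cycle kinase gene, held 1 region of 1251 bp in the BN1-labelled list and 2479 bp in the control-labelled list, close to the upper bound. Arid1a, a BAF complex subunit gene, held a start region with 34.1 in the BN1-labelled list and 21.3 in the control-labelled list. Bicra, a subunit gene of the BRD9-containing complex, had 3 regions outside the gene, of which the highest had 19.6 in the BN1-labelled list and 8.43 in the control-labelled list. A housekeeping gene could reach the same strength: the region inside Ywhaz, a 14-3-3 protein gene whose starts the table does not hold, had 70.5 in the BN1-labelled list and 32.4 in the control-labelled list.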

How the data were processed

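The 2 ChIP peak lists were deposited by the authors as narrowPeak files. The submitters' processing notes list MACS3 3.0.1, Bowtie2 2.5.4, deepTools 3.5.1, Picard 3.2.0 and the builds mm10 and GRCm38, with neither order nor role. How the input was used, any pooling and thresholds are not given in the sources used. Each deposited peak has the authors' fold enrichment (a linear ratio), −log10 p-value, −log10 q-value and score; the deposited score was not used. The lowest deposited −log10 q was 1.30 for BN1 and 1.32 for control. The lists hold no read counts, so depth is unknown and it limits which weak peaks could be called.

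Peaks were merged with bedtools 2.31.1 (distance 0) and set against RefSeq GRCm38.p6 genes, which is the assembly of mm10; start sequences are from the RefSeq start table of the same assembly. Gene spans carry no strand in the gene table. No genome was used here, so the planned motif search around summits was not run. The scripts ran under Python 3.11.15 with scipy 1.17.1, pandas 2.3.3, numpy 2.4.6 and matplotlib 3.10.9, and the classing was checked on simulated peaks. Exact (Clopper-Pearson) 95% intervals cover counting error only, and order-statistic intervals treat regions as independent, which neighbours are not. All 398 listed genes were found.

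The regions and the gene lists were chosen with earlier results of these data known. Named regions were the 10 strongest by mean percentile, the 10 longest by the smaller covered length, the 10 genes and 10 stretches with most regions, up to 4 genes of each list with most regions within 50 kb, regions at the bounds, and regions holding miRNA genes. Other genes were named after their values were seen. Alternatives were −log10 q of at least 5 or 10, lists of equal length, merging within 500 bp, bounds of 1.5-fold and 3-fold, length as a share of each list, end windows of 500 and 2500 bp, ends of all RefSeq genes, numbered chromosomes and X only, at least 50% overlap, links of 10 and 100 kb and, chosen after seeing the data, regions with no start within 1000 bp.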

Additional observations from a re-analysis of the deposited data

How the results depend on the processing

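Over 15 alternative settings, 14 of them planned, 59 values stayed within the tolerance used and 36 did not. The tolerance was 1.5 times the reported count for counts and the reported value's 95% interval for the others. The number of regions ran from 1332 to 2983, and that of listed genes with a region from 84 to 187. The cause was not tested for any of them, beyond what a setting itself removes. With −log10 q of at least 5, the median percentage of bp covered by both lists was 72.1% and the median percentiles were 55.7 (BN1) and 60.7 (control). With at least 10, 1332 regions were left, the overlap was 75.02%, the percentiles were 53.0 (BN1) and 58.2 (control), and 2631 genes and 96 listed genes had a region within 50 kb. With lists of equal length these values were 71.6% overlap and percentiles of 63.5 (BN1) and 56.8 (control), so the list with the higher median percentile changed. Merging within 500 bp gave 65.9% and percentiles of 61.0 (BN1) and 66.3 (control). Bounds of 1.5-fold gave 77.5% and 61.7 (BN1), and bounds of 3-fold gave 62.8% and 55.8 (BN1). Length as a share of each list gave 65.3% and percentiles of 54.7 (BN1) and 68.5 (control). With the ends of all RefSeq genes, 66.5% of regions lay inside genes, with percentiles of 56.9 (BN1) and 62.4 (control). An overlap of at least 50% gave 72.8% and percentiles of 61.0 (BN1) and 67.5 (control). Without a start within 1000 bp, 53.6% lay inside genes, the overlap was 66.5%, the percentiles were 52.9 (BN1) and 58.4 (control), and 2629 genes had a region. Links of 10 kb left 1792 genes and 84 listed genes, and links of 100 kb gave 6077 genes. No paired analysis was possible because each group has 1 ChIP library. The lists hold no depth, the peak names read opposite to the sample titles, and 1 library a group gives no replicate error, so the values describe these 2 libraries.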

Other observations

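On the X chromosome 56 of 610 merged regions belonged to the set (9.18%), and on the Y chromosome 4 of 10, against 6.83% of all merged regions. The region on the unplaced scaffold of chromosome 4 stood among the 10 strongest, with a fold enrichment of 74.6 in the BN1-labelled list and 58.4 in the control-labelled list. Among immune receptor segment genes, V segments overlapped 2 regions of the set (0.0838%). Genes annotated as pseudogenes overlapped 25 regions (1.05%), those annotated as transcribed pseudogenes 23 (0.964%) and V segment pseudogenes 1. The overlap of other region classes with these kinds of gene was not measured.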
